A study of Mus musculus with 28 samples.

Results

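The 68 cytosolic ribosomal protein genes examined here were taken by name from the gene table of an mRNA series on mouse testis: every Rpl or Rps symbol that ends in a number, or in a number followed by a or x, except Rpl3, Rpl10, Rpl22 and Rpl39. They are 68 of 34839 genes in the table, 39 for the large subunit (Rpl) and 29 for the small subunit (Rps). The naming rule uses no measured value, but the choice was made with earlier results of these data known. The series asks what the domains of PRDM9 do in meiosis. The mRNA libraries are 2 from Prdm9 KO testis, 2 from Hop2 KO testis and 1 from adult wild-type (WT) testis, all of strain C57BL/6. No age is given for the knockouts, and no treatment is given for any of them. PRDM9 is the histone methyltransferase that places meiotic recombination sites, and HOP2 (gene symbol Psmc3ip) is a cofactor of strand exchange. Meiotic breaks were mapped by sequencing of single-stranded DNA (SSDS) in 1 testis library of Prdm9 K/K mice, whose PRDM9 lacks the KRAB domain.

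Each cytosolic ribosome joins a small subunit, which reads the messenger RNA, to a large subunit, which forms the peptide bond, and each subunit needs its proteins in near-equal number. Messenger RNAs of ribosomal proteins start with a tract of pyrimidines, the 5′ terminal oligopyrimidine (TOP) motif, through which mTOR and LARP1 control their translation. In the male germ line the X chromosome is silenced in pachytene spermatocytes, and autosomal copies of some X-linked ribosomal protein genes are known to be active in testis. The mammalian genome also holds many processed pseudogenes of this family, whose sequence can be nearly identical to the parent.

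The start regions of the family carried more pyrimidine than those of other genes. RefSeq start regions (build GRCm38.p6) matched 50 of the 68 members. An unbroken run of at least 8 C or T letters lay within 20 bases either side of the annotated start in 24 of the 50 (48%), against 15.1% of the 11449 tested genes with such a region and 15.9% of all 27025 regions of the same length. The median longest run was 7 bases in the members and 5 in the tested genes. The pyrimidine word CTTTC, read on the sense strand of the same 40 bases, was in 32% of members and 4.46% of tested genes. GGAAGT, the core word of ETS factors, stood on either strand of the 300-base regions in 54% of members and 27.2% of tested genes. AAGATGGC, a word of YY1 sites, was in 8% and 4.20%, also on either strand. TATAAA on the sense strand within 50 bases before the start was in 0 of 50 members and 1.43% of tested genes. In Rpl36a, printed below, the word lies just past the annotated start and so outside this window. Searched words could overlap each other. A matching word is not a shown binding site. The sequences below are 40 bases before the start and 20 bases from it, 5′ to 3′ on the gene's strand, for the members on which the results turn. Capitals mark the longest pyrimidine run within 20 bases of the start.
Rps4x, chrX:102189372-102189431, minus strand: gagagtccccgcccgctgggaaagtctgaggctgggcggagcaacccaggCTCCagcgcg
Rpl36a, chrX:134585614-134585673, plus strand: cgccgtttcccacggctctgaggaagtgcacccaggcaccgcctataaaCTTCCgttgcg
Rpl14, chr9:120571477-120571536, plus strand: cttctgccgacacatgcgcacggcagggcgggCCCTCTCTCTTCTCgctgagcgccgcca
Rps12, chr10:23787190-23787249, minus strand: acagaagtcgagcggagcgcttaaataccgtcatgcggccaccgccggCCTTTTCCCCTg
Rpl5, chr5:107900488-107900547, plus strand: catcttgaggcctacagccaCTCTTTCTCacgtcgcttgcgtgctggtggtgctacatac
Rps6, chr4:86857348-86857407, minus strand: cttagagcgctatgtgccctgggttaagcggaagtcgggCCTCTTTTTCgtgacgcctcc
Rpl35, chr2:39005112-39005171, minus strand: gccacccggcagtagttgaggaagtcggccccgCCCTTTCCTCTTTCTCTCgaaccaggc
The run was 18 bases long in Rpl35 and 14 in Rpl14. The runs at the annotated starts of the X-linked members were 4 bases (Rps4x) and 5 bases (Rpl36a). Where a TOP start lies away from the annotated start, this window does not hold it.

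Values are the authors' rescaled TPM, a level per transcript length that can be compared between genes, and their columns sum to between 825459 and 953598 in the 4 knockout libraries and to 1622660 in WT. Read depth is unknown. Psmc3ip had levels of 22.8 and 26.4 in Prdm9 KO and only 3.51 and 5.06 in Hop2 KO, against 197 in WT. The Prdm9 level (4.73 and 5.93 in Prdm9 KO and 10.7 and 15.03 in Hop2 KO, against 6.20 in WT) does not check its label. The lists of spermatid and pachytene genes together took 0.0479% to 0.0620% of the column total in the knockout libraries and 10.7% in WT. In such bulk samples, a change in the share of a cell type and a change of RNA per cell cannot be told apart. The labels do not say that libraries come from separate animals, so each p-value covers library-to-library spread alone, and that spread may be technical.

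The family took a larger share of the mRNA in the knockout testes than in WT. Its summed level was 6.26% and 5.29% of the column total in the Prdm9 KO libraries, 6.86% and 5.92% in the Hop2 KO libraries and 2.86% in the WT library. Means were 5.78% ± 0.683 in Prdm9 KO and 6.39% ± 0.663 in Hop2 KO (SD, n = 2 each), 2.02 and 2.24 times the WT value. All 4 knockout libraries lay above WT, and the 2 knockouts overlapped. With only the 20 spermatid and 20 pachytene genes of those lists left out of the total, the WT share was 3.20%. The ratios were then 1.81 for Prdm9 KO and 2.00 for Hop2 KO. All other genes stayed in this total, those of late germ cells outside the lists among them. Small subunit genes stood at 2.32 times WT in Prdm9 KO and 2.59 times in Hop2 KO, and large subunit genes at 1.81 and 1.99 times. With 1 WT library these ratios have no test.

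Ranks within a library, which no scaling of a column can move, differed as well. Of the 68 genes, 25 and 20 were among the 100 highest genes in the Prdm9 KO libraries, 26 and 23 in the Hop2 KO libraries and 4 in WT. Among the 500 highest genes there were 60 and 61 in Prdm9 KO and 62 and 62 in Hop2 KO, against 30 in WT. The order among the members was much alike between knockout libraries, with Spearman coefficients across the 68 genes of 0.951 to 0.980, and less alike with WT, at 0.807 to 0.850. These coefficients run across genes, which are not replicates.

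**Figure D1:**
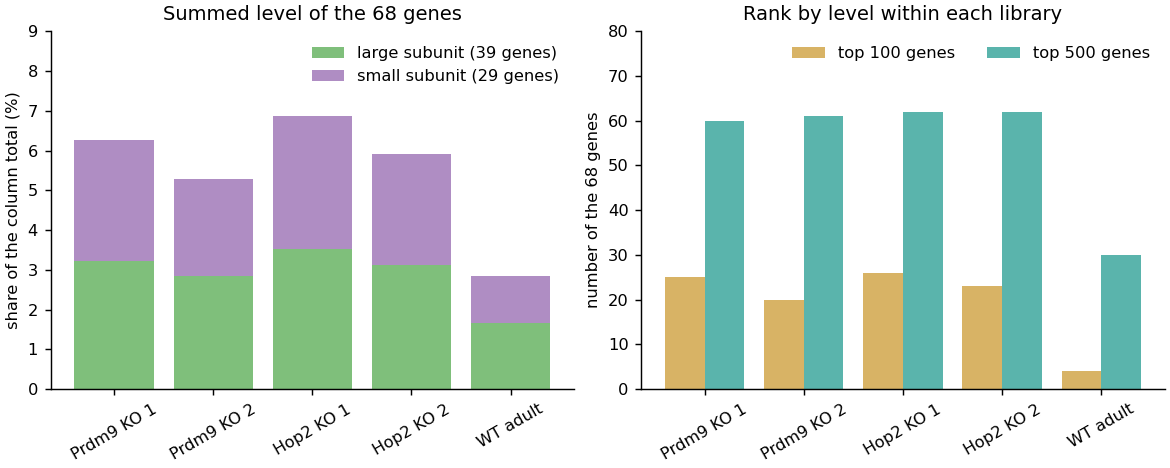
Left, summed level of the 68 genes as a percent of the column total in each library, stacked by subunit. Right, how many of the 68 genes were among the 100 and the 500 highest genes of that library. The knockout libraries lie at 5.29% to 6.86% and WT at 2.86%, and 20 to 26 members reach the top 100 in the knockouts against 4 in WT.

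Levels of single members differed widely within each library. Rpl41, which encodes the smallest protein of the large subunit, was the highest member, at 3289 and 2258 in Prdm9 KO and 3427 and 3182 in Hop2 KO, against 4220 in WT. Other members of high level were Rps29, Rpl36 and Rps14, with means over groups from 1890 down to 1487, and the spread of their libraries overlaps. The lowest were Rpl12 at 15.6 to 20.1 and Rpl5 at 10.9 to 35.3, followed by Rpl27, Rps12 and Rps23. Rpl27, Rps12 and Rps23 are also the members whose pseudogene copies, described further on, held the highest share of the sum of gene and copies. The median member stood at 688 and 549 in Prdm9 KO and 799 and 709 in Hop2 KO, against 536 in WT.

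Prdm9 KO was set against WT in a limma fit of all 5 libraries on log2(value + 1), in which the spread comes from the knockout pairs and is taken to hold for the single WT library. All 68 members passed the filter on low values. Of them 13 rose (19.1%) and 4 fell (5.88%), while over all 16261 genes tested 34.6% were called higher and 39.4% lower (Benjamini-Hochberg adjusted p under 0.05). At the deposited scaling both of the members' shares lie below the background, and the other 51 members were not called. Under other scalings, given further on, the share that rose is not always below it. The median log2 difference was 0.21 over the members and -0.077 over all genes. It was 0.32 over small subunit and 0.12 over large subunit members. Both Prdm9 KO libraries lay above WT in 35 members (51.5%, against 46.2% of all genes) and both below it in 19 (27.9%, against 49.3%).

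Both X-linked members rose furthest. Rps4x, the X-linked form of small subunit protein eS4, was 297 and 283 in Prdm9 KO and 347 and 376 in Hop2 KO, against 42.1 in WT. Its log2 difference was 2.75 in Prdm9 KO (SE 0.11, limma adjusted p = 0.000294) and 3.07 in Hop2 KO (SE 0.11, limma adjusted p = 0.00022). Rpl36a, a large subunit protein near the exit site of transfer RNA, was 224 and 174 in Prdm9 KO and 246 and 255 in Hop2 KO, against 25.7 in WT. Its differences were 2.89 (SE 0.19, limma adjusted p = 0.000918) and 3.23 (SE 0.19, limma adjusted p = 0.000683). All knockout values of both genes lie far above WT, and both rose under every alternative tried. Over the 742 X-linked genes tested the median difference was 1.23 in Prdm9 KO, with an upper quartile of 1.92, and 1.25 in Hop2 KO, with an upper quartile of 1.96, against medians of -0.085 and -0.062 over 14427 autosomal genes. Thus 60.1% of X-linked genes were called higher in Prdm9 KO and 60.6% in Hop2 KO. The highest autosomal member, Rpl14, had 1.44 and 1.69.

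At the deposited scaling, autosomal relatives of the X-linked genes did not share this pattern. Rps4l on chromosome 6 was 294 and 259 in Prdm9 KO and 288 and 292 in Hop2 KO, against 517 in WT, and fell by 0.90 (-0.90) in Prdm9 KO and by 0.83 (-0.83) in Hop2 KO on the log2 scale (limma adjusted p = 0.0074 and 0.00902). Rpl36al on chromosome 12 was 254 and 223 in Prdm9 KO and 309 and 294 in Hop2 KO, against 267 in WT, and was not called (limma adjusted p = 0.337 and 0.307). These differences depend on the scaling of the columns. As a share of the column total, Rps4l in the knockout libraries lay on both sides of WT. The share of Rpl36al was above that of WT in every knockout library. In WT the relative was the higher gene of each pair, 517 against 42.1 and 267 against 25.7. Among the genes that the naming rule leaves out, X-linked Rpl10 (329 and 209 in Prdm9 KO and 331 and 234 in Hop2 KO, against 38.9 in WT) and Rpl39 (187 and 121 in Prdm9 KO and 245 and 132 in Hop2 KO, against 17.2 in WT) rose too. Their testis relatives Rpl10l and Rpl39l fell, by 2.69 (-2.69) and 3.00 (-3.00) in Prdm9 KO and by 2.51 (-2.51) and 2.81 (-2.81) in Hop2 KO. Related genes share sequence, so reads may be split between them.

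**Figure D2:**
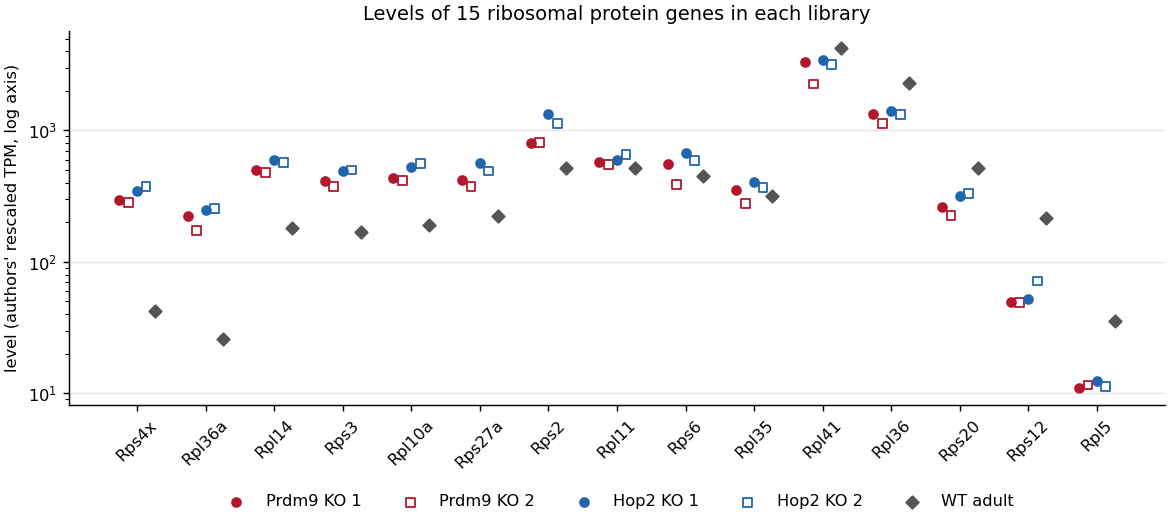
Level of 15 members in each library, in the authors' rescaled TPM on a log axis, with 1 point per library. Rps4x and Rpl36a stand at 174 to 376 in the knockouts and at 42.1 and 25.7 in WT, while Rpl5 stands at 10.9 to 12.3 in the knockouts and 35.3 in WT.

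Among autosomal members, Rpl14, Rps3 and Rpl10a rose under every alternative tried in both comparisons with WT. Rpl14, a large subunit protein, was 504 and 476 in Prdm9 KO and 597 and 568 in Hop2 KO, against 179 in WT. Rps3, which lines the entry of the messenger RNA channel, was 411 and 376 in Prdm9 KO and 490 and 499 in Hop2 KO, against 170 in WT, a difference of 1.20 (SE 0.13, limma adjusted p = 0.003) and 1.54 (SE 0.13, limma adjusted p = 0.00161). Rpl10a, the protein of the mobile L1 stalk, was 437 and 415 in Prdm9 KO and 526 and 556 in Hop2 KO, against 190 in WT, a difference of 1.16 and 1.51 (SE 0.13 each). For these genes the knockout libraries and WT do not overlap. Rps19, whose human gene is mutated in Diamond-Blackfan anaemia, also rose, at 1.05 in Prdm9 KO and 1.24 in Hop2 KO. Rps27a, which encodes a small subunit protein fused to ubiquitin, rose by 0.83 and 1.24. The other members that rose in Prdm9 KO were Rpl23a, Rpl27, Rpl4, Rpl6, Rpl9 and Rps21. Of all that rose in Prdm9 KO, only Rps4x, Rpl36a, Rpl14, Rps3 and Rpl10a kept the call under every alternative. In Hop2 KO, Rpl6, Rps2 and Rps27a kept it as well, and the other rises did not. With its named copies added, Rpl27 was no longer called, at 0.58 in Prdm9 KO (limma adjusted p = 0.159) and 0.83 in Hop2 KO (limma adjusted p = 0.0756).

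Few members fell. Rpl5, which carries 5S ribosomal RNA together with RPL11 and can bind MDM2, was 10.9 and 11.6 in Prdm9 KO and 12.3 and 11.2 in Hop2 KO, against 35.3 in WT. It fell by 1.57 (-1.57, SE 0.14, limma adjusted p = 0.00198) in Prdm9 KO and by 1.51 (-1.51, SE 0.14, limma adjusted p = 0.00212) in Hop2 KO, and under every alternative. Not all of its transcripts were lower in the knockouts, as described further on. Its partner Rpl11 was 577 and 547 in Prdm9 KO and 591 and 660 in Hop2 KO, against 515 in WT, and was not called in either (limma adjusted p = 0.508 and 0.189). Rps12, a small subunit protein, was 49.6 and 48.7 in Prdm9 KO and 51.9 and 71.4 in Hop2 KO, against 216 in WT (log2 difference -2.11, SE 0.22, limma adjusted p = 0.00299, and -1.81, SE 0.22, limma adjusted p = 0.00435). With its named copies added the direction of Rps12 turned, to 0.66 and 0.79. Rps20 was 260 and 225 in Prdm9 KO and 318 and 331 in Hop2 KO, against 515 in WT (-1.09, SE 0.15, and -0.67, SE 0.15), but stood at 0.14 and 0.38 after quantile normalization and at -0.15 and 0.14 with columns rescaled to 1000000. Rpl36 fell in Prdm9 KO (-0.91, SE 0.26, limma adjusted p = 0.0391) but stood at 0.022 with rescaled columns, and in Hop2 KO it was at -0.75 (SE 0.26, limma adjusted p = 0.0641). Rps6, the substrate of S6 kinase that reports mTOR activity in its protein form, was 553 and 386 in Prdm9 KO and 667 and 593 in Hop2 KO, against 447 in WT, and was not called in either comparison.

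Hop2 KO was set against WT in the same fit and shares its WT library with the comparison above, so likeness between both is not a result. In Hop2 KO, 23 members rose (33.8%, against 35% of all genes tested) and 3 fell (4.41%, against 39.5%). At the deposited scaling the share that rose is thus near the background, and the share that fell is below it. The median log2 difference was 0.46 over the members and -0.058 over all genes, with 0.51 over small subunit and 0.36 over large subunit members. Both Hop2 KO libraries lay above WT in 49 members (72.1%, against 46.1% of all genes) and both below in 12 (17.6%, against 48.2%). Called higher were the 13 that rose in Prdm9 KO and, among others, Rpl19, Rpl21, Rpl23, Rps10, Rps16, Rps2 and Rps9. Rps2, which sits at the messenger RNA entry, was 1333 and 1124 in Hop2 KO against 513 in WT (1.25, SE 0.20, limma adjusted p = 0.00894), and 803 and 807 in Prdm9 KO, where it was not called (0.65, limma adjusted p = 0.0514).

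**Figure D3:**
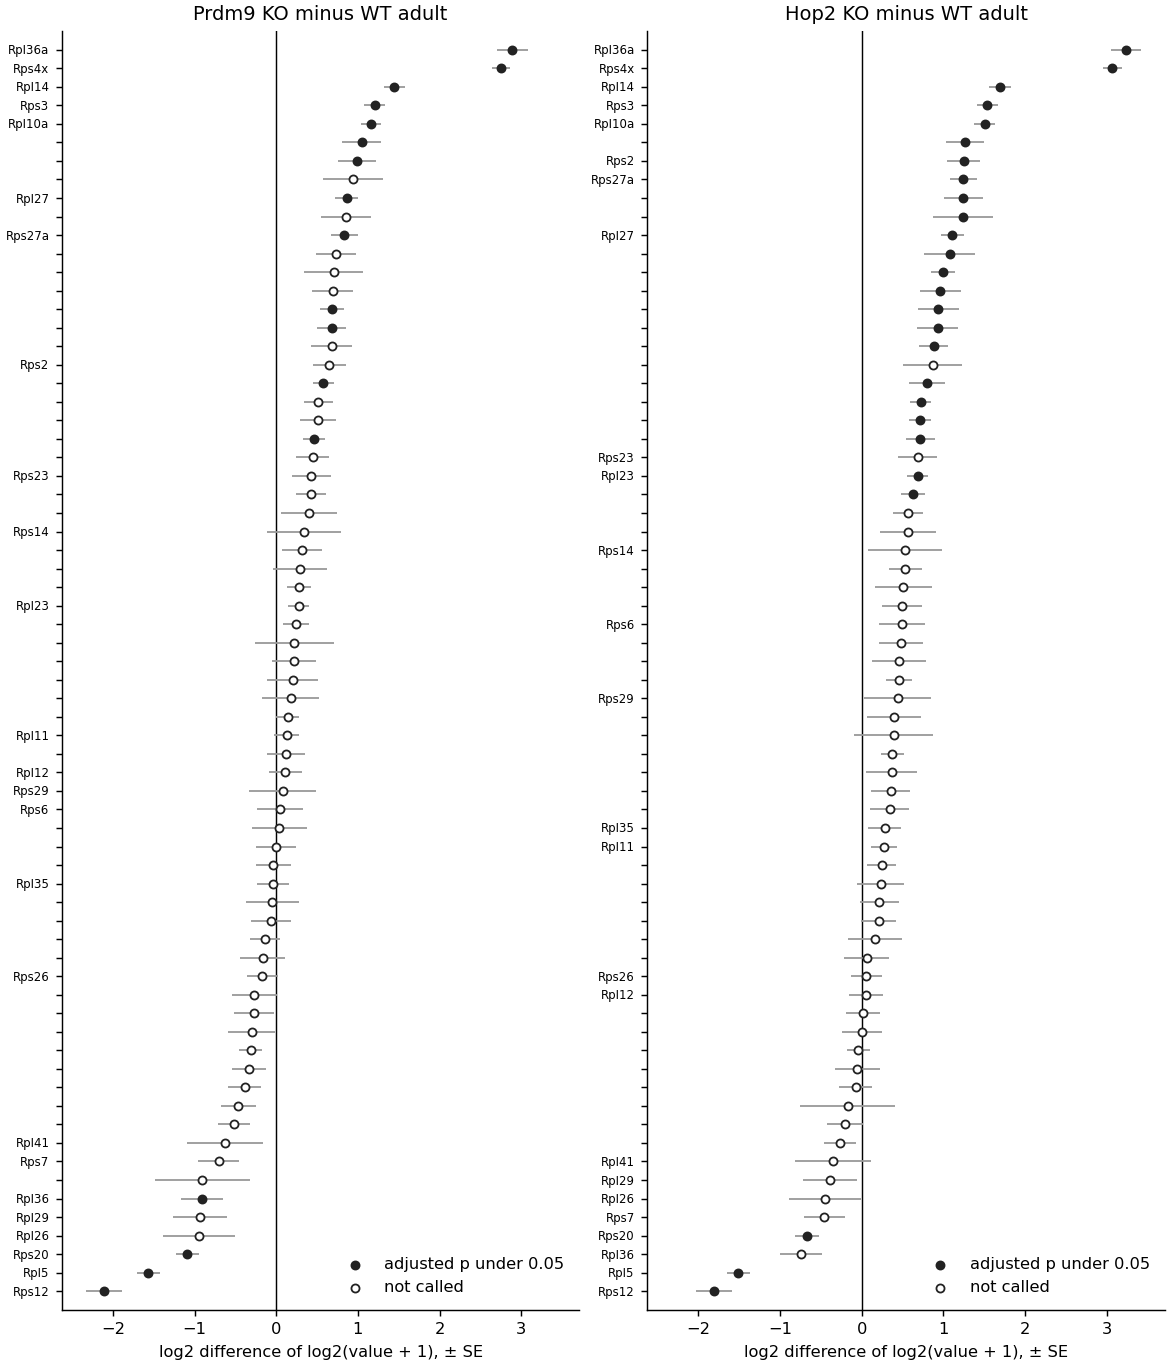
Log2 difference from WT of each of the 68 members, in Prdm9 KO (left) and Hop2 KO (right), on log2(value + 1) with bars of 1 SE from the limma fit and filled points for adjusted p under 0.05. Each panel is sorted by its own values, 25 members carry their names, and both use the same WT library. Rpl36a and Rps4x stand apart at the top, and Rps12 and Rpl5 at the bottom.

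The number of calls depends on how the WT column is scaled. With columns rescaled to a sum of 1000000, 48 members were called higher and 2 lower in Prdm9 KO, and 56 and 2 in Hop2 KO. Over all 16038 genes tested, 8284 were called higher and 4269 lower in Prdm9 KO, and 7963 and 4474 in Hop2 KO. Quantile normalization gave 55 and 2 in Prdm9 KO and 59 and 2 in Hop2 KO. Over all 16315 genes it called 8121 higher and 4742 lower in Prdm9 KO, and 8102 and 4778 in Hop2 KO. Median-ratio scaling gave 25 and 3 in Prdm9 KO and 29 and 2 in Hop2 KO. Over all 16171 genes it called 6332 and 5673, and 6390 and 5684. With rescaled columns and after quantile normalization the members' share called higher was thus above that of all genes. With median-ratio scaling it was below in Prdm9 KO and above in Hop2 KO. The median of all genes moved too, to 0.77 and 0.68 with rescaled columns, 0.65 and 0.65 after quantile normalization and 0.18 and 0.19 with median-ratio scaling. Relative to that median the members stood higher under each of these scalings, by 0.29 to 0.64 in Prdm9 KO and by 0.51 to 0.67 in Hop2 KO. With either Hop2 KO library or Prdm9 KO replicate 1 left out, 8 members were called higher in Prdm9 KO, and with either Hop2 KO library left out 10 were called in Hop2 KO.

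Markers of other cells differ between the same groups. Summed levels of the Sertoli list were 11328 and 11840 in Prdm9 KO and 10721 and 15510 in Hop2 KO, against 2588 in WT. The spermatogonia list summed to 1003 and 848 in Prdm9 KO and 973 and 953 in Hop2 KO, against 275 in WT. Leydig cell genes summed to 36370 and 49561 in Prdm9 KO and 26724 and 74056 in Hop2 KO, against 6060 in WT, and the macrophage list to 873 and 567 in Prdm9 KO and 1005 and 821 in Hop2 KO, against 105 in WT. In Prdm9 KO 18 of 21 Sertoli rows, 15 of 19 spermatogonia rows, 9 of 10 Leydig and 10 of 10 macrophage genes rose. Their part in the result was not tested.

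Prdm9 KO was set against Hop2 KO in a fit of the 4 knockout libraries. No member was called in either direction (0 of 68; of 14358 genes 0.0139% were called higher and 0% lower), so no single member is shown to differ. At an unadjusted p under 0.05 there were 0 members higher, against 1.32% of all genes, and 4 lower (5.88%, against 1.78% of all genes), namely Rps2, Rpl23, Rps20 and Rps27a. The differences nevertheless lay almost all on one side. Of the 68, 67 were lower in Prdm9 KO and 1, Rpl12, was higher (1.47%, against 42.2% of all genes), with a median of -0.25 against -0.035 over all genes. Both Prdm9 KO libraries lay below both Hop2 KO libraries in 40 members (58.8%, against 21% of all genes). With quantile normalization the median was -0.069 and 14 members were higher, and without Prdm9 KO replicate 2 it was -0.12 with 11 higher.

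Much of the family moved together between libraries of the same genotype as well. Prdm9 KO replicate 2 lay below replicate 1 in 58 members (85.3%, against 53.7% of all genes), and Hop2 KO replicate 2 below replicate 1 in 45 (66.2%, against 49.2%). The median log2 difference, replicate 2 minus replicate 1, was -0.23 over the members in Prdm9 KO, against -0.020 over all genes, and -0.10 over the members in Hop2 KO, against 0 over all genes. The median of -0.25 between the genotypes thus stands beside one of -0.23 between the Prdm9 KO replicates. Mitochondrial ribosomal protein genes, another family, were lower in Prdm9 KO in 79 of the 80 tested, with a median of -0.20. The macrophage list, given above, the myoid list and the endothelium list have the same order of summed level over the 4 knockout libraries. The myoid list was 904 and 652 in Prdm9 KO and 1004 and 835 in Hop2 KO, against 1051 in WT. The summed share of the members has this order too. Their summed level does not, at 54670 and 43697 in Prdm9 KO and 61479 and 56454 in Hop2 KO. The other cell type lists do not have this order of summed level. The initiation and elongation factor lists do, as do ribosomal proteins with other kinds of names and other TOP mRNAs, listed further on. As a share of the column total, the macrophage, myoid, elongation factor and other TOP mRNA lists keep the order. The endothelium list, the initiation factor list and the ribosomal proteins with other kinds of names do not keep it as a share. The part of any list in the result was not tested. In the authors' deposited table, whose compared groups are not named, 17 of the 68 members (25%) have p under 0.05, against 3.93% of 21263 genes, with the lowest p at 0.00722 (Rps2) and every q of a member at 1.

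**Figure D4:**
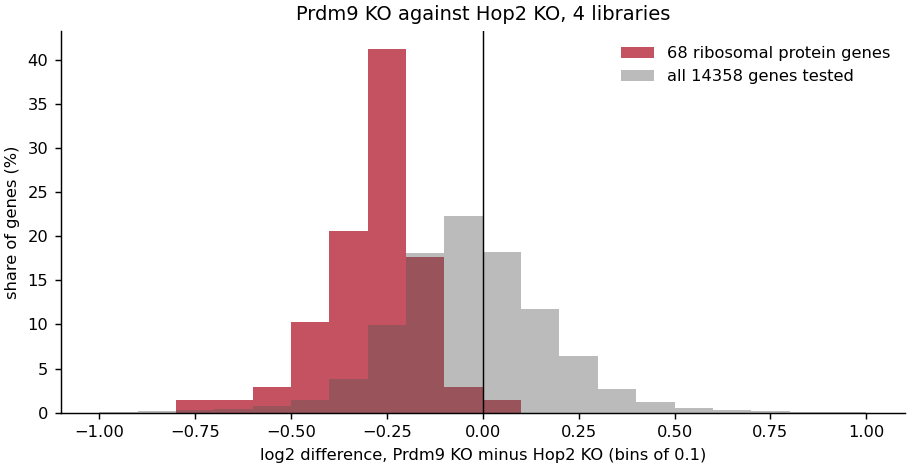
Share of genes by log2 difference, Prdm9 KO minus Hop2 KO, in bins of 0.1, for the 68 members and for all 14358 genes tested. Members lie mostly between -0.5 and -0.1, with a median of -0.25, and all genes centre on -0.035; values beyond 1 in either direction are outside the plot.

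Named pseudogene copies bear on several of these values. The table lists 252 of them, for 51 of the 68 members, and 63 had a mean of at least 1. Together they took 0.894% and 0.707% of the column total in Prdm9 KO and 0.793% and 0.660% in Hop2 KO, against 0.254% in WT. In 9 members the copies held over 20% of the sum of gene and copies, with the highest shares at Rpl27 (94.5%), Rps12 (93.5%) and Rps23 (82.8%). Rpl36a (40.9%) and Rpl10a (32.3%), named above as rising, are also among these 9. Both were still called higher in both comparisons with WT after their copies were added. One copy, Rps12-ps3, alone was 2119 and 1488 in Prdm9 KO and 2151 and 1751 in Hop2 KO, against 936 in WT, far above Rps12 itself. Estimates for such near-identical sequences are uncertain, and copies under other names cannot be recognised. Over the 53 members whose copies held under 5%, 10 rose and 2 fell in Prdm9 KO and 18 rose and 1 fell in Hop2 KO, with medians of 0.22 and 0.44.

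Some copies had larger differences between the knockouts than any member, although 0 of the 54 tested passed and 4 had an unadjusted p under 0.05 (limma). Rps2-ps10 was 285 and 108 in Prdm9 KO, against 1.56 and 0.185 in Hop2 KO and 0.330 in WT. With its copies added, Rps2 was 1232 and 940 in Prdm9 KO, against 1338 and 1127 in Hop2 KO, so that the groups overlap, and its log2 difference was -0.19 (SE 0.22, limma unadjusted p = 0.429), against -0.60 (SE 0.18, limma unadjusted p = 0.0198) for the gene alone. Rpl38-ps2 was 74.3 and 157 in Prdm9 KO and 55.6 in WT but is listed at 0 in both Hop2 KO libraries (limma unadjusted p = 1.16e-05, adjusted p = 0.0556). The difference of Rps6 was -0.44 for the gene alone and -0.15 with its copies added. Rpl23 and Rps20, with no named copy, stayed at -0.41 and -0.42. Rps13 had the widest replicate ratio, 2.35 in Prdm9 KO, with 639 and 272 for the gene beside 4.10 and 248 for its copy Rps13-ps1 in the same libraries. With all copies added, 67 of 68 members were still lower in Prdm9 KO, with a median of -0.24.

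Transcript shares, which column scaling does not touch, differed between WT and the knockouts in a few members. In Rpl35 the transcript ENSMUST00000080861 held 13.6% and 6.46% of the gene's level in Prdm9 KO and 9.10% and 6.66% in Hop2 KO, against 75.4% in WT, although the gene as a whole was not called. In Rps27a, ENSMUST00000102845 held 23.8% and 43.7% in Prdm9 KO and 33.2% and 43.7% in Hop2 KO, against 60.6% in WT. In Rps26, ENSMUST00000219591 held 40.8% and 25.1% in Prdm9 KO and 30.3% and 43.3% in Hop2 KO, against 51.3% in WT, where the second transcript held 48.7%. In these 3 of 68 members the highest transcript of WT was the highest in none of the 4 knockout libraries. Judged by the mean of each knockout it was the highest in neither in 6 members, the others being Rpl5, Rpl23 and Rps10. In Rpl5, ENSMUST00000153590 held 33.5% and 42.2% in Prdm9 KO and 35.2% and 28.6% in Hop2 KO, against 88.7% in WT, and it was still the highest in Prdm9 KO replicate 2. Its level was 3.66 and 4.87 in Prdm9 KO and 4.34 and 3.21 in Hop2 KO, against 31.3 in WT. The Rpl5 transcript ENSMUST00000082223 went the other way, at 5.61 and 4.36 in Prdm9 KO and 6.55 and 6.06 in Hop2 KO, against 0.328 in WT. In Rpl23 and Rps10 the share in WT lay between those of the knockout libraries. With 1 WT library, the shares have no test, and transcripts of 1 gene share reads. The same counts were not made over all genes, so these changes are not shown to be particular to the family.

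**Figure D5:**
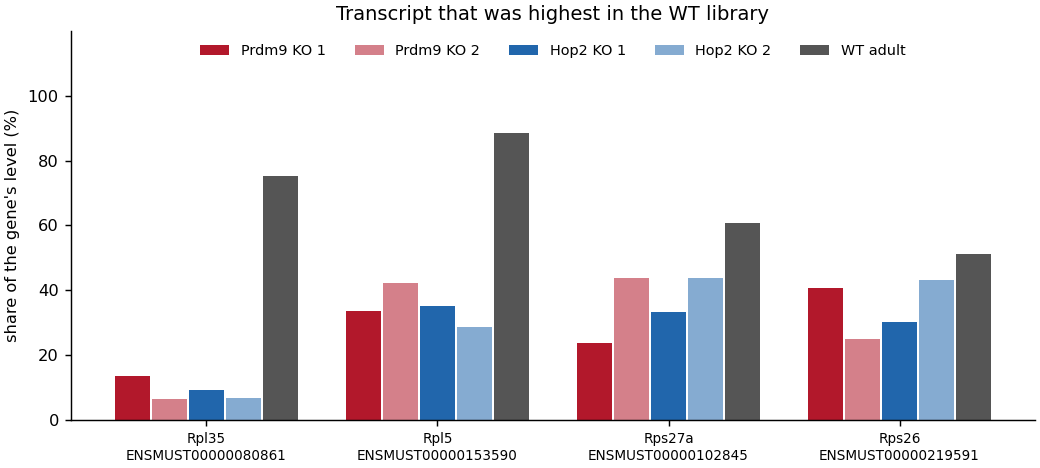
Share of the gene's level held by the transcript that was highest in WT, for Rpl35, Rpl5, Rps27a and Rps26, with 1 bar per library. The Rpl35 transcript lies at 6.46% to 13.6% in the knockout libraries and at 75.4% in WT, and the Rpl5 transcript at 28.6% to 42.2% and at 88.7%.

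Other genes of the translation machinery were counted at the deposited scaling only, here and in the next paragraph. Over all genes tested, 34.6% were called higher and 39.4% lower in Prdm9 KO, and 35% and 39.5% in Hop2 KO. As a share of the column total, the elongation factor list was above WT in every knockout library, and the initiation factor list below it. Of 29 initiation factor genes, 2 rose and 19 fell in Prdm9 KO and 2 rose and 19 fell in Hop2 KO, with medians of -0.86 and -0.76. Pabpc1, the poly(A)-binding protein, was 471 and 463 in Prdm9 KO and 396 and 483 in Hop2 KO, against 3421 in WT. Of 7 elongation factor genes, 2 rose and 3 fell in each comparison with WT. Eef1d, a subunit of the exchange factor of eEF1A, was 292 and 257 in Prdm9 KO and 319 and 330 in Hop2 KO, against 1849 in WT, whereas its partner Eef1b2 rose, by 0.96 and 1.28. Eef2, the translocase, fell by 1.08 (-1.08) and 1.01 (-1.01).

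Ribosomal protein genes with other kinds of names were mixed, with 2 of 7 higher and 2 of 7 lower in each comparison. Rps3a1 rose by 1.27 and 1.57 and Rpsa by 0.87 and 1.07, while Fau, which encodes eS30 fused to a ubiquitin-like protein, fell by 1.19 (-1.19) and 0.82 (-0.82). Ribosome biogenesis genes had 12 of 33 higher and 6 lower in each comparison, and RNA polymerase I genes 4 of 14 higher and 5 lower in Prdm9 KO and 3 and 6 in Hop2 KO. Among other TOP mRNAs 3 of 8 rose and 2 fell in Prdm9 KO, and 4 rose and 2 fell in Hop2 KO. Of 18 rows of the mTOR pathway 13 rose and 3 fell in each, and those that fell included Mtor (-1.39 and -1.55) and Larp1 (-2.00 and -2.20), the regulators of TOP mRNAs. Of 80 mitochondrial ribosomal protein genes 33 rose and 23 fell in Prdm9 KO and 37 rose and 18 fell in Hop2 KO, with medians of 0.17 and 0.39. None of these lists had a member called between Prdm9 KO and Hop2 KO.

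Among 2044 genes with a mean of at least 100, those whose pattern over the 5 libraries lay nearest to the median member, by Euclidean distance of centred log2 values, were Mt2, Prdx6, Psmb5, Naxe and Tdrp. Their distances were 0.0686 to 0.112, against a median of 0.424 for the 64 members in this set and 1.59 for the other genes. Mt2, a metallothionein, was 758 and 631 in Prdm9 KO and 813 and 785 in Hop2 KO, against 562 in WT.

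Meiotic breaks of Prdm9 K/K testis lay near the starts of most members. SSDS peaks fell within 1 kb of the annotated start in 40 of the 50 members with a start (80%, exact 95% binomial interval 66.3% to 90.0%), against 61.4% of 11449 tested genes and 66.9% of 1558 genes with a mean level of at least 100. The interval holds the 66.9% of the genes of high level, and it covers counting error only. For all 68 members by gene span with 1 kb either side, the share was 79.4%, against 65.4% of tested genes and 69.4% of genes of high level. Distinct fragments within 1 kb of the start had a median of 26.5 per member, with quartiles of 14.25 and 55, against a median of 16 over tested genes and 19 over the genes of high level. Rps13 had 198 fragments, Rpl34 173 and Rpl35 124, whereas Rps4x had 7 and Rps26 had 3, both without a peak. Rpl13a with 59 fragments and Rpl15 with 55 had no peak either, although they lie at or above the upper quartile. The other members without a peak were Rps21, Rpl41, Rpl27, Rps10, Rps3 and Rpl6. With 1 library of 1 genotype and no control library, these counts show where fragments lay in that testis and allow no comparison of genotypes.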

How the data were processed

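The 5 mRNA libraries and the SSDS library were used. The authors deposited a signal per gene and transcript that the file headers call TPM; per the submitters' processing notes it comes from CASAVA, kallisto and sleuth with builds GRCm38 and mm10. The columns do not sum to 1000000, so the deposited values had been scaled beyond plain TPM, and depth is unknown. Also deposited were the authors' p-values and q-values (sleuth) and, per the submitters' processing notes with MACS2 2.1.0.20150420, SSDS peaks (17731) and 9397213 fragments, of which 2652951 were distinct. Genes with a mean of at least 1 were tested on log2(value + 1) with limma (version 3.58.1, R 4.3.3), allowing an intensity trend, with Benjamini-Hochberg adjustment over all genes tested and a threshold of 0.05. Scripts were tested on simulated data. Fold changes on this scale understate the change of low genes. The members and lists were chosen with earlier results of these data known. Members named in full are those of highest and lowest level, of largest difference or smallest p in each comparison (5 each), the X-linked ones, those whose main transcript differs, and Rps6, Rpl5 and Rpl11; others that were called, or that a count of 5 or fewer or a copy singles out, are named after their values were seen. Alternatives were the pseudocount (0.1 and 5), the filter (none and 5), 3 other scalings, no trend, members plus named copies, each replicate left out and, between the knockouts, a replicate block. Equal replicate numbers are not said to mark pairs. Gene positions are from RefSeq (GRCm38.p6), whose symbols matched all 68 members. Some genes and the other libraries are not reported here.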

Additional observations from a re-analysis of the deposited data

Results flagged for a closer look

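At the deposited scaling, Rpl35a and Rps25 stood on opposite sides of WT in the 2 knockouts. Rpl35a, a large subunit protein gene, was 506 and 731 in Prdm9 KO and 893 and 865 in Hop2 KO, against 749 in WT. Both Prdm9 KO libraries lay below WT and both Hop2 KO libraries above it, with a log2 difference between the knockouts of -0.53 (SE 0.22, limma unadjusted p = 0.0667, adjusted p = 0.972). Its named copies summed to 209 in Prdm9 KO replicate 1 and to 1.55 in replicate 2, against 1.29 and 4.76 in Hop2 KO. With them added the difference was -0.28 (limma unadjusted p = 0.116). Rps25, a small subunit protein gene, was 550 and 476 in Prdm9 KO and 631 and 705 in Hop2 KO, against 563 in WT, with a difference of -0.38 (SE 0.16, limma unadjusted p = 0.0669, adjusted p = 0.972). Neither difference passed the test over all genes. The position relative to WT depends on the scaling. As a share of the column total, both genes were above WT in every knockout library. Over all settings tried, the log2 difference of Prdm9 KO from WT ran from -0.56 to 0.81 for Rpl35a. For Rps25 it ran from -0.24 to 1.01.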

How the results depend on the processing

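The calls against WT depend on the scaling, and the counts over all genes under each scaling are given above. With columns rescaled to 1000000 the member median was 1.14 in Prdm9 KO (48 higher, 2 lower) and 1.26 in Hop2 KO (56 higher). With median-ratio scaling it was 0.48 (25 higher) and 0.72, and with quantile normalization 1.29 (55 higher, 2 lower) and 1.33 (59 higher). Left-out replicates gave 8 to 14 members higher in Prdm9 KO and 10 to 24 in Hop2 KO. Of members whose copies held under 5%, 2 fell in Prdm9 KO and 1 in Hop2 KO (restriction chosen after seeing the data). Adding copies gave shares of 6.58% in Prdm9 KO and 7.12% in Hop2 KO. The median between the knockouts was -0.069 with quantile normalization. Peaks above the median by distinct fragments, also chosen after seeing the data, left 56% of members with a peak. The share was 42.2% of tested genes and 44.7% of genes with a mean level of at least 100. The planned selection by the authors' score was not run. The replicate block between the knockouts gave 0 calls and 15 members at an unadjusted p under 0.05, against 4 without it, but the samples share only a number: deviations of equal numbers correlated at 0.413 over all genes, with only 2 pairs. No paired fit with WT was possible, since its library has no partner.

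For 25 members named by rule, 932 of 1025 alternatives kept direction and call, 13 lost and 41 gained a call, and 39 changed direction. Against WT, the rescaled columns gave in Prdm9 KO 0.76 for Rps26, 0.022 for Rpl36, 0.23 for Rps7, 0.89 for Rpl35 and 0.30 for Rpl41, and in Hop2 KO 0.14 for Rps20, 0.42 for Rpl29, 0.064 for Rpl36, 0.36 for Rpl26, 0.35 for Rps7 and 0.46 for Rpl41. Quantile normalization gave in Prdm9 KO 0.96 for Rps26, 0.14 for Rps20, 0.20 for Rpl29, 0.39 for Rps7, 1.14 for Rpl35 and 0.25 for Rpl41, and in Hop2 KO 0.38 for Rps20, 0.55 for Rpl29, 0.26 for Rpl26, 0.49 for Rps7 and 0.29 for Rpl41. Median-ratio scaling gave 0.10 for Rps26 and 0.23 for Rpl35 in Prdm9 KO. Added copies gave 0.66 in Prdm9 KO and 0.79 in Hop2 KO for Rps12. Between the knockouts, rescaled columns gave 0.055 for Rpl5, and quantile normalization 0.053 for Rpl11. With replicates left out, values against WT ran from -0.010 to 0.69 (Rps14), -0.21 to 0.31 (Rps6), -0.25 to 0.41 (Rps29) and -0.21 to 0.13 (Rpl35) in Prdm9 KO, and from -0.033 to 0.15 (Rps26) and -0.12 to 0.23 (Rpl12) in Hop2 KO. Between the knockouts they ran from -0.54 to 0.15 (Rps14), -0.11 to 0.23 (Rpl12) and -0.12 to 0.0044 (Rpl5). The causes were not tested. Unknown depth limits the low members.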
